A study of Mus musculus with 24 samples.

Results

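The regions described here are the 4862 differentially hydroxymethylated regions (DhMRs) whose assigned gene carried at least 1 DhMR that was higher in Wt25 cells and at least 1 that was higher in AA10 cells. They were assigned to 947 genes, of 7457 genes with a DhMR in either direction, and made up 4862 of 20726 DhMRs. The genes were selected on the measured calls themselves, so that their presence in both lists is the selection and not a result. That background share, 12.7% of all listed genes, is given for scale only. It counts 3883 genes with 1 DhMR, which cannot be in both lists. The DhMRs higher in Wt25 numbered 12096 in all, 0.0888% of the 200-base bins of the genome, and those higher in AA10 numbered 8630, or 0.0633% of bins. How many of these bins held enough reads to be tested is not given in the sources used here.

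The cells were mouse embryonic stem cells lacking Tet1, Tet2 and Tet3, of mixed C57BL/6J and 129V background, grown in 2i medium with LIF. Full-length human Tet3 was returned to them by lentivirus, either as the wild type (Wt25) or as a phosphor-mutant whose cdk5 target serines had been replaced by alanine (AA10). Each line was 1 puromycin-selected clone, chosen for similar Tet3 protein, so that the form of Tet3 and the clone cannot be told apart. The 5hmC-bearing DNA was pulled down with an antibody and sequenced (5hmC-DIP) in 3 libraries per line, and the deposited lists hold only the position and the assigned gene of each DhMR, called over all libraries. The reads behind each DhMR, its fold change and the spread between replicates are therefore unknown, and all shares below are descriptions whose 95% intervals cover counting error only.

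TET enzymes oxidise 5-methylcytosine to 5-hydroxymethylcytosine (5hmC), mostly at CpG dinucleotides, and 5hmC is an intermediate of DNA demethylation as well as a mark found in its own right. In embryonic stem cells it is known from gene bodies, enhancers and the edges of CpG-rich promoters. A gene can hold many separate sites that gain or lose 5hmC, and a gene name alone does not say which site is meant.

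The sequences of 5 pairs of opposite DhMRs are shown because they lie close together, among the pairs in introns or intergenic DNA with under 50% repeat bases, so that both directions can be read in almost the same stretch of DNA. They are from the + strand of GRCm38.p6, with each CpG in capitals and 198 listed bases per DhMR. *Wrn* encodes a RecQ helicase, *Atp10a* a phospholipid flippase and *Akap2* an anchor of protein kinase A.
Wrn, higher in Wt25, chr8:33357803-33358000: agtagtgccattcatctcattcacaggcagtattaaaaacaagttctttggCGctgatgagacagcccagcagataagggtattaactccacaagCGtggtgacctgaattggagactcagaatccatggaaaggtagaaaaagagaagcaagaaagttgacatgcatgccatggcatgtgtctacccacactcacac
Wrn, higher in AA10, chr8:33358203-33358400: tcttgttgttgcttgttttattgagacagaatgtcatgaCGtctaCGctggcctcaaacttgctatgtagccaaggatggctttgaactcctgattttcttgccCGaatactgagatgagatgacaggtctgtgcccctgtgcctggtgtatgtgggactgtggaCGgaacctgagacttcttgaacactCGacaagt
Atp10a, higher in Wt25, chr7:58844203-58844400: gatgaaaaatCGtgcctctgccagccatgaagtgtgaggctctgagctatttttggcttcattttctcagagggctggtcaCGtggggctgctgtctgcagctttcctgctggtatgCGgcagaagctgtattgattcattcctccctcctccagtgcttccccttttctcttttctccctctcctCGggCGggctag
Atp10a, higher in AA10, chr7:58844603-58844800: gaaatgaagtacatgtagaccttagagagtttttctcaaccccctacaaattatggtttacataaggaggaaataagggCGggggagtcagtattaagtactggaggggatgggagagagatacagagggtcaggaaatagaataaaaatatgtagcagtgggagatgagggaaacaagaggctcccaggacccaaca
Tmco4, higher in Wt25, chr4:138980603-138980800: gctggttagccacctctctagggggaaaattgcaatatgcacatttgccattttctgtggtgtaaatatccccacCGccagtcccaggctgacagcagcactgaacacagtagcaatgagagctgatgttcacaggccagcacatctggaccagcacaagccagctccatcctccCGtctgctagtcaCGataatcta
Tmco4, higher in AA10, chr4:138981003-138981200: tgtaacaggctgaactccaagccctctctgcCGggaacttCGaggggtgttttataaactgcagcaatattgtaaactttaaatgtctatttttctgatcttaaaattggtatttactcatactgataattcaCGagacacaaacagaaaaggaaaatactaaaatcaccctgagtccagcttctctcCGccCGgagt
Akap2, higher in Wt25, chr4:57820403-57820600: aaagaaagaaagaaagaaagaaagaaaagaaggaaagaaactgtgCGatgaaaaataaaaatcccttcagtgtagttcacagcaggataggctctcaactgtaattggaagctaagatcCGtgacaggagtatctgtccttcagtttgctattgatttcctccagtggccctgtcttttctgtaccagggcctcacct
Akap2, higher in AA10, chr4:57821003-57821200: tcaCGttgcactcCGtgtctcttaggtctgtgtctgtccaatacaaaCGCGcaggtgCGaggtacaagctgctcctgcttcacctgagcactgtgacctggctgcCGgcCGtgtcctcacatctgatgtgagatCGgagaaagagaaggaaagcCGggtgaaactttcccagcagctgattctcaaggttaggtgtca
Arhgap17, higher in Wt25, chr7:123329603-123329800: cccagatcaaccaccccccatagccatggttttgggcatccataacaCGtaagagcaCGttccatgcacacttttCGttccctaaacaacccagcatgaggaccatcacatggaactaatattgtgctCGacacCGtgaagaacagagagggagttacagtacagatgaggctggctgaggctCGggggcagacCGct
Arhgap17, higher in AA10, chr7:123330203-123330400: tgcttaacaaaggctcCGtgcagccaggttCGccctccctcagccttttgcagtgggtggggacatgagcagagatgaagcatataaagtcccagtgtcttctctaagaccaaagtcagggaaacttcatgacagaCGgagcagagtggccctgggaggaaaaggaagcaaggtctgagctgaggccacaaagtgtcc
Unlisted DNA of 202 bases separated the pairs of *Wrn*, *Atp10a* and *Tmco4*, and 402 bases those of *Akap2* and *Arhgap17*. The *Atp10a* pair lay downstream of the gene and the other pairs lay in introns, that of *Akap2* also inside *Pakap*. The Wt25 DhMR held more CpGs in 2 of the 5 pairs (*Atp10a*, 5 against 1, and *Arhgap17*, 7 against 3) and the AA10 DhMR in the other 3 (*Wrn*, 5 against 2, *Tmco4*, 5 against 3, and *Akap2*, 9 against 2). GC content was higher in the Wt25 DhMR of 2 pairs and in the AA10 DhMR of 3 pairs.

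Of the 947 genes, 321 (33.9%) had just 1 DhMR of each direction, 214 had 1 Wt25 and several AA10 DhMRs, 225 had 1 AA10 and several Wt25 DhMRs, and 187 (19.7%) had at least 2 of each. At least 4 of each were found in 17 genes. The 321 genes with 1 DhMR of each kind stand just inside the selection. Just outside it stand the genes with 2 DhMRs of 1 direction, 807 of them Wt25 and 506 AA10, and genes with many DhMRs of a single direction, such as *Vmn1r238*, a vomeronasal receptor gene with 225 AA10 DhMRs, and *Cdh4*, a cadherin gene with 13 Wt25 DhMRs. The share of genes in both lists was 19.6% (17.8 to 21.6) at 2 DhMRs, 30.8% at 3, 30.6% at 4, 37.6% at 5 to 9 and 26.3% (21.0 to 32.5) at 10 or more. The plot of this share by DhMR number and by gene length shows both.

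**Figure D1:**
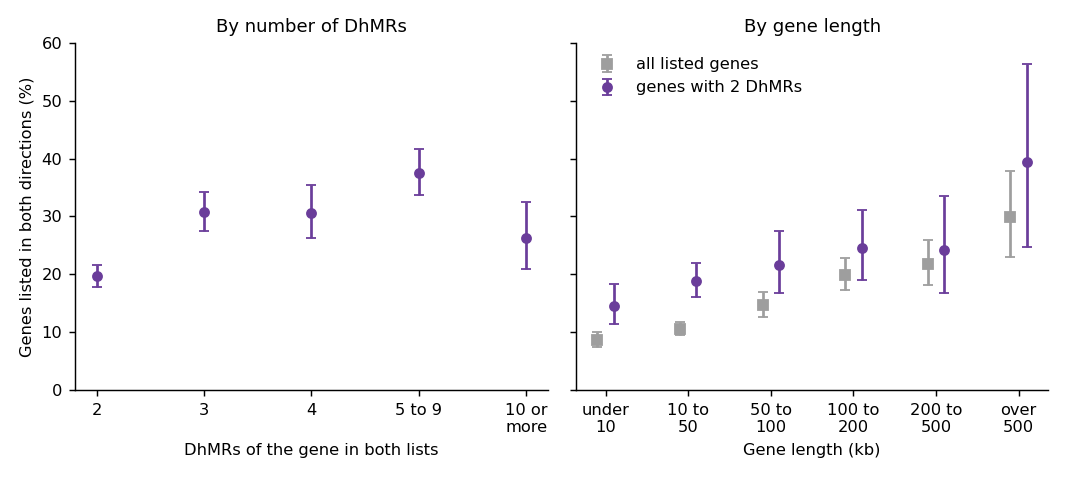
Percent of listed genes with DhMRs of both directions (vertical axis), by the number of DhMRs of the gene and by gene length, with bars for 95% Wilson intervals. By length, squares are all listed genes and circles genes with 2 DhMRs. Among genes with 2 DhMRs 19.6% held both directions, and among genes over 500 kb long 29.9% did.

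The selected genes held 2387 Wt25 and 2475 AA10 DhMRs, 19.7% and 28.7% of the respective lists. This near-equal number rested on a few genes. *Gm4425*, a long noncoding RNA gene, had 390 AA10 and 21 Wt25 DhMRs, and *Tsn*, which encodes translin, had 217 AA10 and 10 Wt25 DhMRs. Without these 2 genes the numbers were 2356 Wt25 and 1868 AA10. In *Gm4425* 387 of the AA10 DhMRs formed a single run upstream of the gene, at chr12:22305803-22483200. Dense runs of this kind, 20 or more successive DhMRs of 1 direction with gaps of at most 10 kb, held 670 AA10 DhMRs (27.1%) and 192 Wt25 DhMRs (8.04%) of 10 genes. Over the whole lists such runs held 20.4% of AA10 and 11.3% of Wt25 DhMRs, so that they were not particular to these genes.

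The closest DhMRs of opposite direction in a gene lay a median of 21.0 kb apart (17.8 to 24.4), with quartiles of 6.2 and 69.0 kb. They lay within 10 kb in 303 genes (32.0%), within 100 kb in 766, and farther than that in 181 (19.1%). In the 321 genes with 1 DhMR of each direction the median was 27.8 kb (22.2 to 33.8). Genes with 2 DhMRs of the same direction had a median of 9.2 kb (7.6 to 11 kb) for Wt25 and 9.9 kb (6.8 to 12 kb) for AA10. Leaving out pairs within 1 kb, the medians were 30.3 kb (24.2 to 35.8) for opposite, 17.8 kb (15.0 to 21.4) for Wt25 and 17.2 kb (14.8 to 19.6) for AA10 pairs.

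Directly adjoining bins of opposite direction were found in 2 genes, *Exosc5*, which encodes a subunit of the RNA exosome, and *Chst5*, a carbohydrate sulfotransferase gene. By comparison, 166 of the 807 genes with 2 Wt25 DhMRs and 112 of the 506 with 2 AA10 DhMRs had them in adjoining bins. The share of 2-DhMR genes with opposite directions was 0.358% for adjoining bins, 16.4% up to 1 kb, 15.2% from 1 to 5 kb, 22.0% from 5 to 10 kb, 23.7% from 10 to 50 kb, 26.3% from 50 to 100 kb and 35.6% (28.9 to 42.8) beyond 100 kb. The share was thus lowest where the DhMRs touched and highest where they lay farthest apart. Bins that adjoin or lie close together can share DNA fragments, and the part of this in the shares was not tested.

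**Figure D2:**
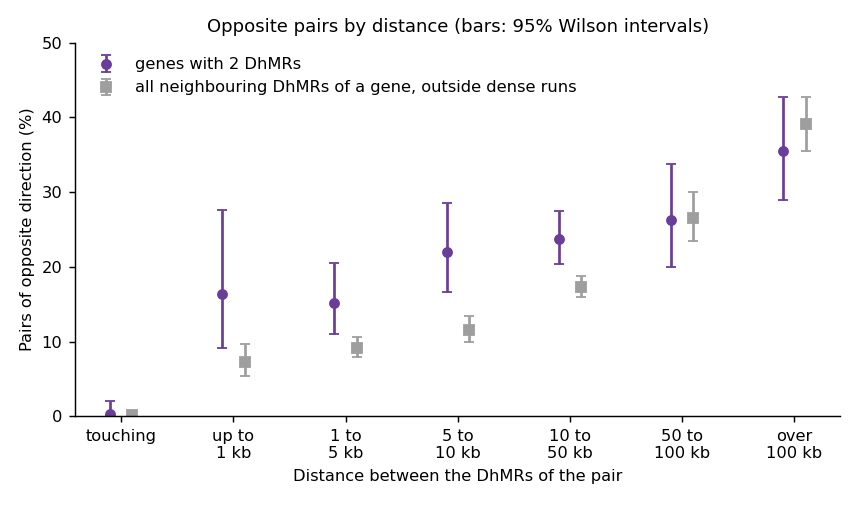
Percent of DhMR pairs with opposite directions (vertical axis) by the distance between them (horizontal axis), with bars for 95% Wilson intervals. Circles are genes with 2 DhMRs and squares all neighbouring DhMRs of a gene outside dense runs. In genes with 2 DhMRs the share was 0.358% for adjoining bins and 35.6% beyond 100 kb.

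Several transcriptional regulators had opposite DhMRs 202 bases apart. *Trim24*, a chromatin-binding cofactor of nuclear receptors, had 15 AA10 DhMRs, 8 of them inside the gene, and 5 Wt25 DhMRs, 1 of them inside. *Sp3* and *Tfcp2*, which encode DNA-binding transcription factors, had 1 Wt25 and 3 AA10, and 3 Wt25 and 2 AA10 DhMRs. *Zic4*, a zinc-finger gene, had 1 Wt25 DhMR at 24.7 kb from its start and AA10 DhMRs at 24.1 and 24.3 kb. The same distance was found in *Hspa8*, a constitutive chaperone, and *Dusp16*, a MAP kinase phosphatase, where both directions lay upstream. Repeats covered much of some of these pairs, 66.7% of the Wt25 and 89.4% of the closest AA10 bases in *Trim24* and 97.5% and 85.9% in *Hspa8*, and their part in the calls was not tested.

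At the other end, the closest opposite DhMRs lay 1358.0 kb apart in *Pcdh9*, a protocadherin gene, 1307.4 kb in *Dpp10*, which encodes a potassium channel subunit, 1289.2 kb in *Celf2* and 1236.8 kb in *Nova1*, both genes of RNA-binding splicing regulators. In *Nova1* both Wt25 DhMRs lay 685 kb or more upstream and both AA10 DhMRs 552 kb or more from the start, beyond the 124.4 kb gene. *Mir684-1* gave a larger distance, but this miRNA name covers several loci and the value has no clear meaning.

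Along the direction of transcription both orders were found in similar numbers. Of 943 genes that could be ordered, all Wt25 DhMRs preceded all AA10 DhMRs in 353 (37.4%), the reverse held in 332 (35.2%), and the directions were intermixed in 258 (27.4%). Among genes with 1 of each, Wt25 came first in 168 and AA10 in 153. Where both directions had at least 2 DhMRs, 121 of 187 genes (64.7%) were intermixed. The direction changed only once along the gene in 688 genes (72.7%), and 5 or more times in 6 genes. The 688 include the 321 genes with 1 DhMR of each direction, where a single change was the only possible outcome.

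*Ank2*, which encodes the membrane adaptor ankyrin-B, was split cleanly: all 15 Wt25 DhMRs lay inside the gene from 36.8 to 189.6 kb after its start, and the 6 AA10 DhMRs from 456.2 to 717.2 kb, 5 of them inside. *Tmem38b*, an intracellular cation channel gene of 36.0 kb, had 5 Wt25 DhMRs that ended at 72.9 kb and 6 AA10 DhMRs that began at 219.7 kb. Only 1 of these Wt25 DhMRs lay inside the gene, and all 6 AA10 DhMRs lay downstream of it. *Meis2*, a homeobox gene, had 7 Wt25 DhMRs from 11.5 to 35.7 kb and 1 AA10 DhMR at 96.5 kb. *Itgb5*, encoding an integrin, turned from Wt25 to AA10 between 11.4 and 12.4 kb.

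Other genes alternated. In *Atxn7l1* the Wt25 DhMRs at 11.8, 99.4 and 137.2 kb were separated by AA10 DhMRs at 37.6, 117.2 and 126.2 kb, with a further AA10 DhMR at 189.6 kb. *Wrn* had 8 Wt25 DhMRs from 2.0 to 144.6 kb and AA10 DhMRs at 27.2 and 79.2 kb. *Magi1*, a junctional scaffold gene, had 17 AA10 DhMRs and its only Wt25 DhMR, at 557.8 kb, lay between AA10 DhMRs at 556.2 and 559.0 kb. The most changes, 6, were seen for *Rprl1*, a short RNA gene with no DhMR inside it, whose 13 DhMRs were spread over its flanks.

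**Figure D3:**
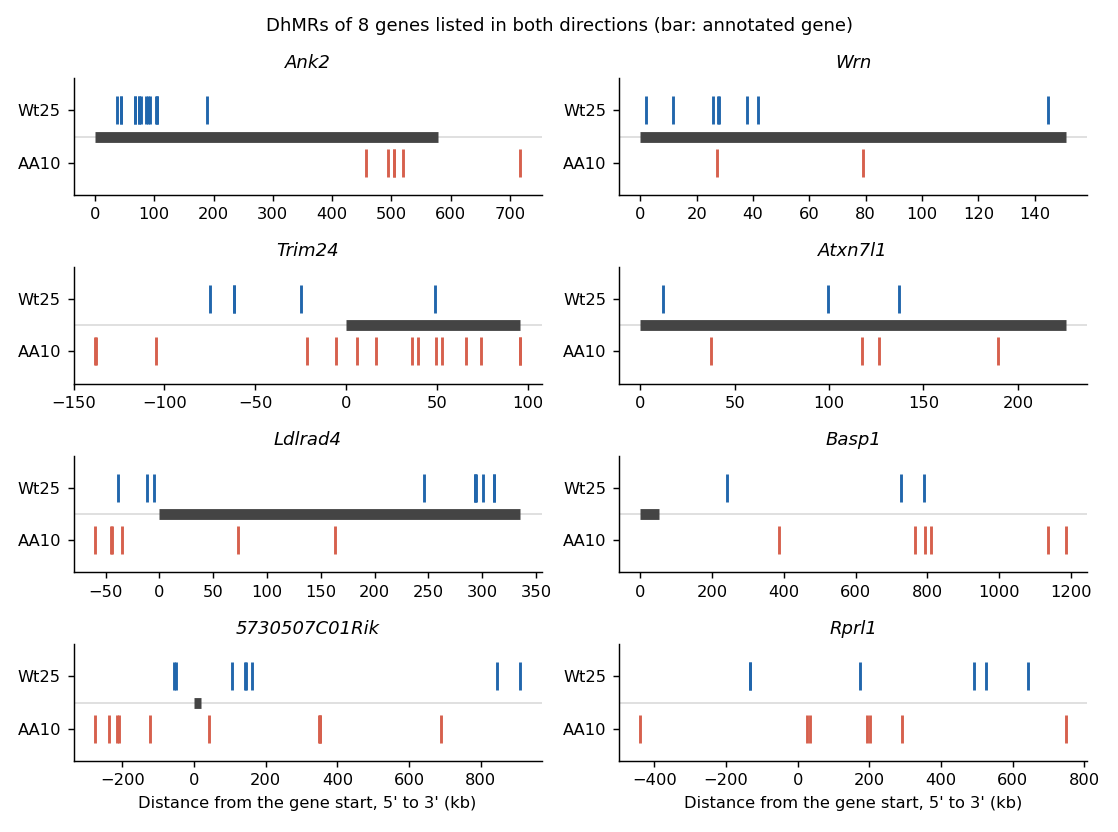
Positions of DhMRs relative to the gene start (horizontal axis, kb in the direction of transcription) for 8 genes, with Wt25 as blue ticks above and AA10 as orange ticks below, and the annotated gene as a bar. In Ank2 the 15 Wt25 DhMRs precede all 6 AA10 DhMRs, and in Atxn7l1 the directions alternate.

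Wt25 DhMRs lay inside the gene in 39.2%, upstream in 37.2% and downstream in 23.6%, and AA10 DhMRs in 29.2%, 45.5% and 25.3%. Outside the dense runs 40.0% of Wt25 and 40.1% of AA10 DhMRs lay inside. In genes of a single direction, also outside the dense runs, the shares inside were 40.7% for Wt25 and 42.2% for AA10. DhMRs of genes with both directions lay farther from the gene start: outside the dense runs, 30.9% of Wt25 and 30.5% of AA10 DhMRs were over 100 kb away, against 13.6% and 12.1% in genes of a single direction. Also outside the dense runs, introns held 45.6% of Wt25 and 44.9% of AA10 DhMRs and intergenic DNA 43.0% and 44.4%. These features came from the basic transcripts of all genes, so that an intron could belong to a gene other than the assigned one. A DhMR inside the annotated gene but outside every such transcript counted as intergenic, as did all 7 Wt25 DhMRs of *Ptprd*. In genes of a single direction, outside the runs, 35.5% of Wt25 and 33.9% of AA10 DhMRs were intergenic. The assigned gene had the nearest annotated start of any gene for 35.6% of the 4862 DhMRs, dense runs included, against 50.7% of all DhMRs with a gene. Counting starts of protein-coding genes alone, these shares were 66.5% and 75.6%. The intergenic and nearest-start shares were likewise not matched for the number of DhMRs. With every DhMR given to the gene of any type with the nearest start, 650 genes held both directions. The DNA nearer to the start of a protein-coding gene than to any other such start also differed. Its median was 157.5 kb for genes with both directions, 70.8 kb for Wt25 alone and 74.1 kb for AA10 alone. With exactly 2 DhMRs the medians were 98.8, 81.0 and 84.1 kb. The part of this in the distances from the start was not tested.

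**Figure D4:**
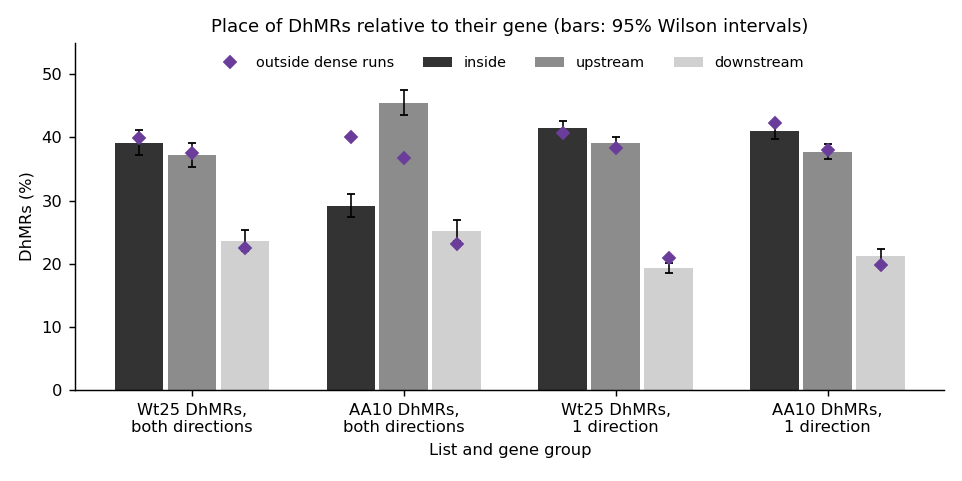
Percent of DhMRs inside, upstream and downstream of the assigned gene (vertical axis), for genes with both directions and genes with a single direction, with 95% Wilson intervals and diamonds for the shares outside dense runs. Over all DhMRs of genes with both directions 39.2% of Wt25 and 29.2% of AA10 DhMRs lay inside, and outside dense runs 40.0% and 40.1%.

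The closest opposite pair lay wholly inside the gene in 263 genes (27.9%), with a median distance of 13.0 kb, wholly upstream in 234 (24.8%, 16.0 kb) and wholly downstream in 137 (14.5%, 13.6 kb). It spanned the gene from upstream to downstream in 75 (7.95%, 80.8 kb). In another 234 genes 1 member lay inside and 1 outside, the AA10 DhMR being inside in 136 and the Wt25 DhMR in 98. Of the 263 pairs inside, 223 had both DhMRs between exons, and in 98 of these (43.9%) both were in the same stretch between exons, a median of 5.1 kb apart. Among genes with 2 DhMRs between exons, opposite DhMRs shared a stretch in 21 of 70 (30%), against 102 of 175 (58.3%) for Wt25 and 84 of 141 (59.6%) for AA10 pairs. Adjoining bins were not left out here. Over all genes with 2 DhMRs they made up 20.6% of Wt25, 22.1% of AA10 and 0.312% of opposite pairs. Their part in the shared stretches was not tested.

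**Figure D5:**
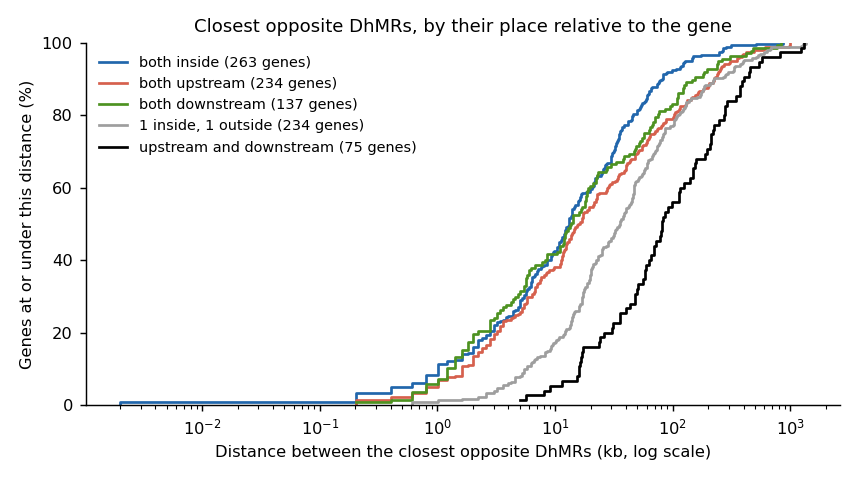
Percent of genes at or under a given distance between their closest opposite DhMRs (horizontal axis, kb, log scale), with a line for each place of the pair relative to the gene. Pairs wholly inside the gene had a median of 13.0 kb and pairs that spanned it 80.8 kb.

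A few genes had a DhMR of each direction near the gene start. *Mdfic*, a gene named for its MyoD family inhibitor domain, had an AA10 DhMR 0.8 kb upstream of its start and a Wt25 DhMR at the start, 0.6 kb apart. *Dcc*, encoding a netrin receptor, had a Wt25 DhMR at 0.6 kb and an AA10 DhMR at 1.4 kb after its start. *Mapt*, the tau gene examined by the study, had 1 Wt25 DhMR 16.5 kb upstream and AA10 DhMRs in introns at 56.1 and 73.7 kb.

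Genes with both directions had a median length of 44.1 kb (38.3 to 53.0), against 24.1 kb (22.8 to 25.6) for genes with Wt25 and 25.0 kb (23.4 to 26.6) for genes with AA10 DhMRs alone. With exactly 2 DhMRs the medians were 35.5 kb (28.0 to 44.6), 24.9 kb (21.9 to 27.6) and 30.2 kb (25.9 to 36.2). The intervals of the first and last overlapped. The share of listed genes with both directions was 8.70% under 10 kb, 10.6% from 10 to 50 kb, 14.7% from 50 to 100 kb, 19.9% from 100 to 200 kb, 21.8% from 200 to 500 kb and 29.9% above 500 kb. With the number of DhMRs held at 2, the shares for the same lengths were 14.6, 18.9, 21.7, 24.6, 24.2 and 39.4%. The last of these rested on 13 of 33 genes (24.7 to 56.3). The longest of these genes included *Ptprd* and *Dlg2*, which encode a receptor tyrosine phosphatase and a synaptic scaffold, with opposite DhMRs 858.8 and 127.2 kb apart.

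Among the 13 gene classes counted, the share of listed genes with both directions was highest in the cadherin and the synaptic lists, against 12.7% over all listed genes. It was 12 of 33 (36.4%, 22.2 to 53.4) for cadherins and protocadherins, which mediate cell adhesion, and 16 of 50 (32.0%, 20.8 to 45.8) for synaptic adhesion and scaffold genes. It was 11 of 53 (20.8%) for Wnt, BMP, FGF and Notch genes, 18 of 89 (20.2%) for homeobox, Pax, Sox and Fox factors, 10 of 53 (18.9%) for chromatin genes, 6 of 38 (15.8%) for axon guidance genes, and 5 of 35 (14.3%) for neurotransmitter receptors. It was 18 of 159 (11.3%) for C2H2 zinc-finger genes and 9 of 87 (10.3%) for lipid genes. For genes with miRNA symbols, a class set by name and not by annotated type, it was 29 of 292 (9.93%). The share was 6 of 66 (9.09%) for ion channels and 4 of 53 (7.55%) for collagens, laminins, integrins and Adamts proteases. For olfactory and vomeronasal receptors it was 4 of 95 (4.21%). The 12.7% covers 3883 genes with 1 DhMR, which cannot hold both directions. Among genes with at least 2 DhMRs the share was 26.5% over all listed genes. It was 50% of 24 cadherin genes and 48.5% of 33 synaptic genes, still the highest classes, and lowest, at 16%, in the collagen class. The closest opposite pair lay a median of 178.7 kb apart in cadherin genes and 83.6 kb in synaptic genes, against 11.4 kb in C2H2 genes. The part of gene length in the class shares was not tested.

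Among the cadherins, *Cdh18* had 4 Wt25 DhMRs inside the gene, from 387.9 to 451.9 kb, and 2 AA10 DhMRs downstream, from 1672.3 kb on. *Cdh20* had 3 Wt25 and 2 AA10 DhMRs, all upstream. Of the axon guidance genes, *Ntn1*, encoding the ligand netrin-1, had 1 Wt25 DhMR at 39.1 kb, 9.2 kb from the nearest of 4 AA10 DhMRs. *Epha4*, an ephrin receptor gene, had all its DhMRs upstream, 1 Wt25 at 174.6 kb and 4 AA10 from 329.2 to 2.6 kb before the start.

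Among chromatin genes, *Kat2b*, a histone acetyltransferase gene, had 15 Wt25 DhMRs, 12 of them inside, and 1 AA10 DhMR 8 kb upstream. *Kdm6b*, which encodes a demethylase of histone H3, had 6 Wt25 and 2 AA10 DhMRs, all upstream and all inside another gene, *Dnah2*. *Sirt1*, a deacetylase gene, had 1 Wt25 DhMR at 61.6 kb and 4 AA10 DhMRs, of which 2 lay downstream, inside *Herc4*. Among transcription factors, *Foxo3* had 11 Wt25 DhMRs and 1 AA10 DhMR, which lay at 96.3 kb, just past the end of the gene. *Zfp423* had 8 AA10 DhMRs inside the gene, from 25.7 to 130.7 kb, and 3 Wt25 DhMRs.

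By annotated type, 820 of 6494 listed protein-coding genes (12.6%), 65 of 375 lincRNA genes (17.3%) and 28 of 291 miRNA genes (9.62%) held both directions. None of the 100 DhMRs assigned to these miRNA genes lay inside the miRNA gene itself, and 61 lay inside another gene. By chromosome, the share was 21.9% (18.6 to 25.7, 113 of 515 genes) on chromosome 8 and 4% (4 of 100) on chromosome X, against 12.7% over all listed genes. On the other autosomes it ran from 8.04% on chromosome 7 to 16.1% on chromosome 13. Among genes with exactly 2 DhMRs the share was 24.5% on chromosome 8, against 19.6% over all listed genes with 2 DhMRs. No interval was calculated for the 24.5%.

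The number of CpGs per DhMR was 3.22 ± 2.30 (SD, n = 2387 DhMRs) for Wt25 and 3.16 ± 2.42 (SD, n = 2475) for AA10, and within genes the mean number was higher in Wt25 in 427 genes and in AA10 in 428. Mean GC content was 47.0% and 45.9%, and the gene mean was higher in Wt25 in 536 genes and in AA10 in 402. A GC difference of this kind was not particular to these genes. In genes of a single direction mean GC content was 47.6% for Wt25 and 45.9% for AA10 DhMRs, with 3.27 and 3.14 CpGs. Repeats covered at least 50% of the bases in 25.8% of Wt25 and 32.4% of AA10 DhMRs. Outside the dense runs the order turned for CpG number and for repeats, with 3.32 CpGs for Wt25 and 3.40 for AA10, and repeat-rich DhMRs at 24.4% and 22.9%.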

How the data were processed

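Of 24 samples in the series, the 6 5hmC-DIP libraries (3 per line) underlie the lists used here. The authors aligned reads to GRCm38 with STAR, removed duplicates with Picard, called 200-base bins with MEDIPS by P value and fold change, removed IgG-DIP peaks and simple repeats, and assigned genes with HOMER (versions not given in the sources used here). The deposited lists hold positions and gene IDs pooled over libraries, with no counts, fold changes or p-values, so that depth and replicate spread are unknown and no test was made. Genes were matched to GENCODE vM21 basic (946 of 947 IDs), and sequence came from GRCm38.p6. The sequence of 1 close pair is not reported here. Distances count the bases between listed DhMRs. Inside, upstream and downstream refer to the annotated gene. Intervals are Wilson intervals for shares and order-statistic intervals for medians, at 95%. Functions were tested on simulated data (11 of 11 checks passed) with Python 3.11.15, numpy 2.4.6, pandas 2.3.3 and scipy 1.17.1. Genes were named by rule: most DhMRs of both directions, closest and farthest pairs, most changes, most uneven numbers, start sites, gene length, genes of the study, and members of each class. The genes and classes were chosen with earlier results of these data known. Alternatives covered gene assignment, dense runs, joined DhMRs, distance limits and subsets of genes.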

Additional observations from a re-analysis of the deposited data

How the results depend on the processing

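Each alternative changed 1 choice, and 24 of 44 values moved. Counting only DhMRs inside genes left 281 genes with both directions, a median closest distance of 13602 bases and Wt25 first in 45.4% of ordered genes (51.5% over all DhMRs). Requiring at least 2 DhMRs of each direction left 187 genes. Genes with 1 of each had a median distance of 27802 bases. Limits of 5 and 20 kb gave 191 and 465 genes. The share of AA10 DhMRs inside the gene was 38.7% with DhMRs within 1 kb joined, 40.1% without dense runs, 31.2% with gene bodies extended and 38.8% without the 2 genes with most DhMRs. Median gene length was 35.5 kb with exactly 2 DhMRs and 59.8 kb for protein-coding genes. Without repeat-rich DhMRs, Wt25 had 3.35 CpGs and 47.4% GC and AA10 46.3% GC. Without dense runs Wt25 had 3.32 CpGs and 47.4% GC, AA10 3.40 CpGs (3.29 with joining) and 46.3% GC, and 44.4% of AA10 DhMRs were intergenic. With joining, 23.8% of genes with 2 regions held both directions. Among genes with at least 2 DhMRs, 48.5% of synaptic genes did, against 26.5% of all listed genes. The joined and dense-run versions of the 2-DhMR share, the genes with 1 of each, the removal of the 2 genes, the intergenic share without dense runs, and the synaptic and chromosome 8 subsets were chosen after seeing the data. Leaving out a replicate was not possible because the lists pool libraries. No paired analysis was possible because the results come from no test.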
